A study of Mus musculus with 8 samples.

Results

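The Fc gamma receptor family was followed in bulk RNA sequencing of the mouse forebrain, through 7 genes picked by symbol from the 53278 symbols of the deposited count table. They are the IgG receptor genes Fcgr1, Fcgr2b, Fcgr3 and Fcgr4, their signalling chain gene Fcer1g, the receptor-like gene Fcrls and the neonatal Fc receptor gene Fcgrt, and each symbol occurred in the table. The 8 libraries came from 8 male C57BL/6J mice, aged 10 to 20 weeks, with no transgene named. In 4 of them microglia were depleted with PLX3397, a blocker of the receptor kinase CSF1R, mixed into the food for 9 days, while the other 4, the controls, received control food over the same time. Whole forebrains were sequenced, so every level below is an average over all cells of the tissue.

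Fc receptors bind the constant part of antibodies. FcγRI (Fcgr1), FcγRIII (Fcgr3) and FcγRIV (Fcgr4) are activating IgG receptors of the mouse that need the FcRγ chain (Fcer1g), whose ITAM motif recruits the kinase SYK after SRC-family kinases have phosphorylated it. FcγRIIB (Fcgr2b) carries its own ITIM motif and dampens these signals through the phosphatase SHIP1 (Inpp5d). Fcrls encodes a receptor-like protein of the same superfamily that is used as a marker of mouse microglia, and FcRn (Fcgrt), which pairs with beta-2 microglobulin, recycles and transports IgG in endothelium, epithelium and other cells. In the brain, microglia and the macrophages of its borders are the main cells that carry the activating receptors.

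The family lies at 4 places in the genome (mm10, GENCODE M21). Fcgr2b (chromosome 1, 170958617 to 170976547, minus strand), Fcgr4 (171018920 to 171029761, plus strand), Fcgr3 (171051174 to 171064935, minus strand) and Fcer1g (171229572 to 171234365, minus strand) are neighbours on chromosome 1. Fcrls (87250758 to 87263738) and Fcgr1 (96282909 to 96293969) are on the minus strand of chromosome 3, and Fcgrt (45092990 to 45103851) is on the minus strand of chromosome 7. All 7 are protein-coding.

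The promoters of all 7 members are shown so that the 6 genes with lower counts in PLX3397-fed mice can be set beside Fcgrt, whose groups overlapped. Each window runs from 250 bases before to 50 bases after the transcript start in RefSeq (GRCm38.p6, the assembly behind mm10), and all 7 members had a window (Fcgr3 had 2, of which the first is printed). Capitals mark GAGGAA, the purine-rich core bound by the myeloid factor PU.1, GGAAGT, a core of the wider ETS family, and TTCNNNGAA, the site bound by STAT dimers, each searched on both strands.
Fcgr1, chr3:96293920-96294219, minus strand: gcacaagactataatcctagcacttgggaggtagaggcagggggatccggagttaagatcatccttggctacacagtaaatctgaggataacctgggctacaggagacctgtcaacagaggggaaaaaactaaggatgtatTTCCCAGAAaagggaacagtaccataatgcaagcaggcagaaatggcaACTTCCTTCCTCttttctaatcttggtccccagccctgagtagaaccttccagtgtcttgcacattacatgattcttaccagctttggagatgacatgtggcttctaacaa
Fcgr3, chr1:171059354-171059653, minus strand: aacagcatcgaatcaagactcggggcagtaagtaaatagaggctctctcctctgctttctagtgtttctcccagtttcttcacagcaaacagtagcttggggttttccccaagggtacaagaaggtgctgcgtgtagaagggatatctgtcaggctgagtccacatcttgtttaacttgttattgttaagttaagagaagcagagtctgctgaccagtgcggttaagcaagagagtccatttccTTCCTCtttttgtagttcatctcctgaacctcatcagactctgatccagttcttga
Fcgr4, chr1:171018676-171018975, plus strand: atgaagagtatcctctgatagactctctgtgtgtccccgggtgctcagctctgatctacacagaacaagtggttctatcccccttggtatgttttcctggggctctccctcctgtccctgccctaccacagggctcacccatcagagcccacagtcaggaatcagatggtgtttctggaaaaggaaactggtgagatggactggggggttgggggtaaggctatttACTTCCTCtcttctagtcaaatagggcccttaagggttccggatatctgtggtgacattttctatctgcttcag
Fcer1g, chr1:171234300-171234599, minus strand: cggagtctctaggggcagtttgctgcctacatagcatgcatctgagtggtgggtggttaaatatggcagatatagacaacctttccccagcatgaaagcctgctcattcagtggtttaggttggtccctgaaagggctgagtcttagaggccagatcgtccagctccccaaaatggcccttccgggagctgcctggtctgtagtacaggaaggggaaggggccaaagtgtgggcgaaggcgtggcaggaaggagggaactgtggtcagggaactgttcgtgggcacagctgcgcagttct
Fcgr2b, chr1:170976022-170976321, minus strand: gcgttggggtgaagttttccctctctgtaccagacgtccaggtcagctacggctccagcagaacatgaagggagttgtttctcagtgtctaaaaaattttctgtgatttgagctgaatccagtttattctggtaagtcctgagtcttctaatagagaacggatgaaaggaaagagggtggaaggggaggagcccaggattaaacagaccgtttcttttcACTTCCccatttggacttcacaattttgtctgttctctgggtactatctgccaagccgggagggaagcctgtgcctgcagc
Fcrls, chr3:87263475-87263774, minus strand: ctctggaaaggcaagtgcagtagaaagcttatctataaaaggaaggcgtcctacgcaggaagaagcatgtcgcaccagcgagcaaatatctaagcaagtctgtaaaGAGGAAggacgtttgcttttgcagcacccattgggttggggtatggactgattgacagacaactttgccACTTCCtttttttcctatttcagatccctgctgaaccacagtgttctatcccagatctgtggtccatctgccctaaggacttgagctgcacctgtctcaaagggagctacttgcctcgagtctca
Fcgrt, chr7:45103773-45104072, minus strand: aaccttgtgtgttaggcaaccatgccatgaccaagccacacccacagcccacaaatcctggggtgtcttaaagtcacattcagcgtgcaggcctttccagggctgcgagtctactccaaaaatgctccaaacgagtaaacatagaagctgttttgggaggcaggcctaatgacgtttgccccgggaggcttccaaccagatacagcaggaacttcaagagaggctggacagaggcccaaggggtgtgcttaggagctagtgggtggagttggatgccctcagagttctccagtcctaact
On the opposite strand of the window, GAGGAA ended 50 bases before the start in Fcgr1, 17 bases before it in Fcgr4 and directly before it in Fcgr3, and in Fcrls it lay 144 to 139 bases before the start on the gene's own strand. GGAAGT was found in the windows of Fcgr1, Fcgr4, Fcrls and Fcgr2b, and in Fcgr4 it overlaps GAGGAA. Fcgr1 alone held TTCNNNGAA, 109 to 101 bases before its start. GAGGAA was thus present in 4 of 7 members, against 28.3% of 32851 promoter windows of the same length, GGAAGT in 4 of 7, against 23.8%, and TTCNNNGAA in 1 of 7, against 8.3%. None of these letters occurred in the windows of Fcgrt and Fcer1g, and Fcgr2b held no GAGGAA. A match describes the letters only.

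The libraries held between 48455538 and 68406688 counts per mouse, so that 1 CPM (counts relative to library size after TMM scaling) stood for about 49 to 69 counts. The tissue markers were those of forebrain: 10 of 10 microglial marker genes fell, while 0 of 5 neuronal and 0 of 5 astrocyte marker genes passed the test. Over all 20140 genes tested, 1.16% passed in either direction, so 0 of 5 is near that share. Of 5 oligodendrocyte marker genes 0 passed either, but 4 had an unadjusted p under 0.05 (list median 0.53), and their sum ran from 5221 to 7645 CPM in PLX3397-fed mice and from 3277 to 6366 CPM in control mice. All 6 striatal marker genes had an unadjusted p under 0.05 and 0 passed, and the summed level of these 6 ran from 453 to 1895 CPM in PLX3397-fed mice and from 157 to 949 CPM in control mice. Mice 2 and 3 of each group held 1249 to 2081 counts of the hypothalamic gene Hcrt and the other mice 4 to 12. Whether the dissected pieces differed within the groups was not tested. Hcrt does not sort all mice cleanly. The 6 hypothalamic marker genes summed to 57.6 CPM in PLX3397-fed mouse 4, against 4.90 to 10.4 CPM in the others with few Hcrt counts and 140 to 180 CPM in mice 2 and 3. With the Hcrt split as a block or the striatal level as a covariate, 5 members passed the test used below.

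Transcripts of 3 IgG receptors, their signalling chain and Fcrls were lower in the forebrain of PLX3397-fed mice, with between 1.67% (Fcrls) and 17.0% (Fcgr2b) of the control level left, whereas the neonatal Fc receptor transcript overlapped the controls. Of the 7 members, 6 had enough counts to be tested (filterByExpr, a filter on low counts), and 5 of these fell and 0 rose: Fcgr1, Fcgr2b, Fcgr3, Fcer1g and Fcrls. Over all 20140 genes tested, the share that fell was 1.11% and the share that rose 0.0546% (edgeR's quasi-likelihood test, threshold 0.05 after adjustment), 1.16% in either direction. Of the same genes, 3.50% had all 4 PLX3397-fed mice below all 4 control mice, as did the 5 members that fell. Fcgr4, which was not among the genes tested, was also lower in all 4 PLX3397-fed mice than in any control mouse. Fcgr1, Fcer1g and Fcrls passed the filter through the control mice alone, so the count of 5 describes these genes and is no evidence beyond them. The median log2 fold change of the 6 tested members was -3.37, and it was -3.94 for the 5 without Fcgrt, against -0.000379 over all genes tested. Bulk counts cannot tell fewer cells of a type apart from less RNA per cell.

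**Figure D1:**
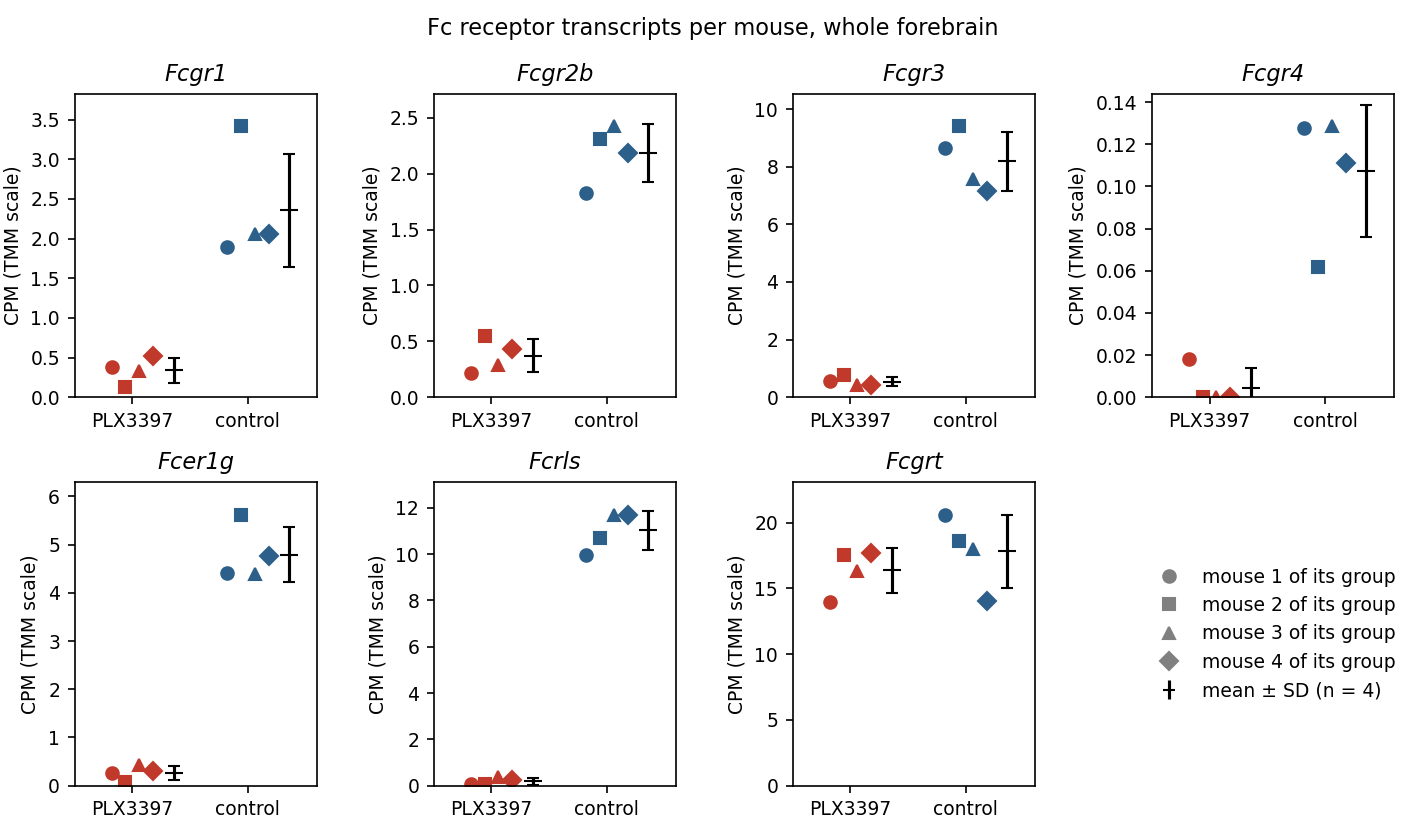
Level of each of the 7 genes in every mouse, in CPM on the TMM scale on linear axes that start at 0, with PLX3397-fed mice in red, control mice in blue, 1 symbol per mouse number and the mean ± SD of 4 mice in black. In 6 panels the red symbols sit below all blue ones, from Fcgr4 with 0 to 0.0181 CPM in PLX3397-fed mice to Fcgr3 with 0.411 to 0.753 CPM, and in the Fcgrt panel the groups overlap.

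Among the activating receptors, Fcgr3, the low-affinity receptor of the mouse, had the most transcript per kilobase in both groups. It had 0.562, 0.753, 0.418 and 0.411 CPM in PLX3397-fed mice 1 to 4, against 8.64, 9.41, 7.57 and 7.16 CPM in control mice 1 to 4. Every PLX3397-fed mouse lay far below the lowest control mouse. On the log2 scale the change was -3.94 with an SE of 0.20 (edgeR, adjusted p = 9.43e-06), which left 6.54% of the control level, 0.536 ± 0.160 CPM against 8.20 ± 1.02 CPM (SD, n = 4 each).

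Fcgr1, the high-affinity IgG receptor, had 0.381, 0.122, 0.332 and 0.514 CPM in PLX3397-fed mice 1 to 4, against 1.90, 3.42, 2.06 and 2.05 CPM in control mice 1 to 4. The groups did not overlap, control mouse 2 stood above the other control mice, and PLX3397-fed mouse 2 was the lowest of its group. On the log2 scale the change was -2.79 with an SE of 0.36 (edgeR, adjusted p = 0.00270), with 14.3% of the control level left. In mice 2 and 3, with many Hcrt counts, 8.29% was left, and in mice 1 and 4, with few, 22.6% (2 mice per group in each), a difference that was not tested. The first set holds mouse 2 of each group, named above. The same split left 17.7% and 16.2% of Fcgr2b, 6.89% and 6.16% of Fcgr3 and 5.13% and 6.14% of Fcer1g. For Fcrls it left 2.04% and 1.30%, and for Fcgrt 92.5% and 91.3%.

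Fcgr4, the third activating receptor, was too weak to pass the filter. A single count was found over the 4 PLX3397-fed mice, in mouse 1, against 7, 3, 7 and 6 counts in control mice 1 to 4. The pooled counts leave 4.14% of the control level, with a 95% exact interval of 0.101% to 25.5% that covers counting error only. Tested without the low-count filter, Fcgr4 did not pass (edgeR, adjusted p = 0.0776).

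Fcer1g, the ITAM-bearing chain that these receptors share with the high-affinity IgE receptor, had 0.254, 0.0814, 0.433 and 0.309 CPM in PLX3397-fed mice 1 to 4. In control mice 1 to 4 it had 4.40, 5.62, 4.39 and 4.75 CPM. The highest PLX3397-fed mouse, number 3, was still far below the lowest control mouse. On the log2 scale the change was -4.10 with an SE of 0.33 (edgeR, adjusted p = 9.34e-05), and 5.62% of the control level was left.

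Fcgr2b, the inhibitory receptor, kept the largest mean share of its control level among the 5 genes that fell, but its mice overlapped those of Fcgr1 (5.18% to 21.8%). In mice 1 and 4 Fcgr1 kept more than Fcgr2b (22.6% against 16.2%), and in mice 2 and 3 less (8.29% against 17.7%). Fcgr2b had 0.218, 0.549, 0.289 and 0.432 CPM in PLX3397-fed mice 1 to 4, against 1.83, 2.31, 2.43 and 2.18 CPM in control mice 1 to 4. PLX3397-fed mouse 2 was the highest of its group, at 25.1% of the control mean, and PLX3397-fed mouse 1 the lowest, at 9.96%. On the log2 scale the change was -2.57 with an SE of 0.27 (edgeR, adjusted p = 6.62e-04), with 17.0% left. The counts of Fcgr2b and Fcgr3 may hold reads of each other, since 9.58% of the 50-base words of the Fcgr3 transcripts also occur in Fcgr2b transcripts (2.54% of 100-base words). Fcgr2b transcripts share 6.95% of their 50-base words with 146 genes in all, 166 of these 395 words with Fcgr3, and 4.30% of their 100-base words with 15 genes, most of them with Cplx2 (127 of 251 words). Its counts may thus hold reads of genes other than Fcgr3, and neither read length nor the handling of such reads was stated. The 5 members apart from these shared no 50-base word with any annotated gene, and 155 exon bases of Fcgr2b overlap the opposite-strand gene Gm38204.

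Fcrls fell furthest. It had 0.0544, 0.0814, 0.375 and 0.226 CPM in PLX3397-fed mice 1 to 4, against 9.97, 10.7, 11.7 and 11.7 CPM in control mice 1 to 4. In counts these were 3, 4, 26 and 11 in PLX3397-fed mice, against 520 to 637 in control mice. On the log2 scale the change was -5.81 with an SE of 0.37 (edgeR, adjusted p = 2.75e-05), and 1.67% of the control level was left.

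Fcgrt, the alpha chain of FcRn, did not pass. It had 13.9, 17.5, 16.3 and 17.7 CPM in PLX3397-fed mice 1 to 4, against 20.6, 18.6, 17.99 and 14.04 CPM in control mice 1 to 4. The groups overlapped over most of their range, at -0.12 on the log2 scale with an SE of 0.12 (edgeR, adjusted p = 0.782) and 91.9% of the control level in PLX3397-fed mice. Its partner chain gene B2m had 47.4, 49.1, 40.1 and 55.8 CPM in PLX3397-fed mice 1 to 4, against 62.6, 60.8, 53.4 and 53.4 CPM in control mice 1 to 4, and did not pass either (-0.26, SE 0.10, adjusted p = 0.390). Endothelial marker genes summed to 175 to 225 CPM in PLX3397-fed mice and 177 to 223 CPM in control mice. PLX3397-fed mouse 1, the lowest for Fcgrt in its group, also had 19.6% of the control level of 6 choroid plexus marker genes, whose part in its Fcgrt level was not tested.

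Per kilobase of exon, the order of mean levels changed between the groups, and some of the genes that changed places overlapped in only 1 group. In PLX3397-fed mice Fcgrt stood alone at 7.78 ± 0.824 CPM per kb, followed by Fcgr3 (0.309 ± 0.0922), Fcer1g (0.308 ± 0.167), Fcgr1 (0.130 ± 0.0629), Fcrls (0.0790 ± 0.0634), Fcgr2b (0.0642 ± 0.0256) and Fcgr4 (0.00361 ± 0.00722). In control mice the order of CPM per kb was Fcgrt (8.47 ± 1.31), Fcer1g (5.48 ± 0.662), Fcrls (4.72 ± 0.359), Fcgr3 (4.72 ± 0.590), Fcgr1 (0.911 ± 0.275), Fcgr2b (0.377 ± 0.0447) and Fcgr4 (0.0854 ± 0.0250). Among neighbours in these orders, the mice of Fcgr3 and Fcer1g, Fcer1g and Fcgr1, Fcgr1 and Fcrls, and Fcrls and Fcgr2b overlapped in the PLX3397-fed group, and in the control group those of Fcrls and Fcgr3 did (SD, n = 4 each). Fcer1g (5.03 to 6.43) and Fcgr3 (4.12 to 5.42) overlapped in the control group too. Each pair of genes that changed places thus overlapped in the PLX3397-fed group, the control group or both. Fcgr3 (0.237 to 0.433) and Fcrls (0.0233 to 0.161) were apart in the PLX3397-fed group. In the control group Fcgr1 (0.734 to 1.32) and Fcrls (4.27 to 5.02) were apart.

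The falls were of unequal size, and 6 ratios between genes, counted within each mouse so that library size cancels, addressed this. Of the 6, 3 did not overlap between the groups, each with p = 0.0286 (exact two-sided permutation test over 70 splits), the smallest that 4 against 4 mice allow, and 0.0571 after Benjamini-Hochberg adjustment over the 6 ratios. No ratio passed after adjustment.

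The ratio of the inhibitory to the activating low-affinity receptor, Fcgr2b to Fcgr3, was 0.397, 0.733, 0.695 and 1.05 in PLX3397-fed mice 1 to 4. In control mice 1 to 4 it was 0.212, 0.246, 0.321 and 0.306. The ratio was higher in every PLX3397-fed mouse than in any control mouse, near 1 in mouse 4 alone, with a mean log2 difference of 1.34 between the groups. The ratios are of counts, with no correction for exon length, so a value near 1 does not mean equal transcript. Per kilobase, Fcgr2b averaged 0.0642 CPM and Fcgr3 0.309 CPM in PLX3397-fed mice, and these genes may share reads, as said above. The ratio of Fcgr1 to Fcer1g was 0.770 to 1.65 in PLX3397-fed mice against 0.433 to 0.609 in control mice (mean log2 difference 1.42). The ratio of Fcrls to Fcer1g went the other way, at 0.241 to 1.00 in PLX3397-fed mice against 1.90 to 2.66 in control mice (mean log2 difference -1.87).

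Fcgr3 to Fcer1g gave a ratio of 2.17, 8.33, 0.967 and 1.32 in PLX3397-fed mice 1 to 4, against 1.96, 1.67, 1.72 and 1.505 in control mice 1 to 4. The groups overlapped (p = 0.8286, exact two-sided permutation test), and the high value of PLX3397-fed mouse 2 decided the sign of the mean log2 difference, which was 0.36 with that mouse and -0.28 without it. That high value rests on 37 Fcgr3 counts over only 4 Fcer1g counts. Fcgr4 to Fcer1g rested on the single Fcgr4 count (p = 0.20, exact two-sided permutation test). Fcgrt to B2m was 0.294 to 0.406 in PLX3397-fed mice and 0.263 to 0.337 in control mice (p = 0.314, exact two-sided permutation test).

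**Figure D2:**
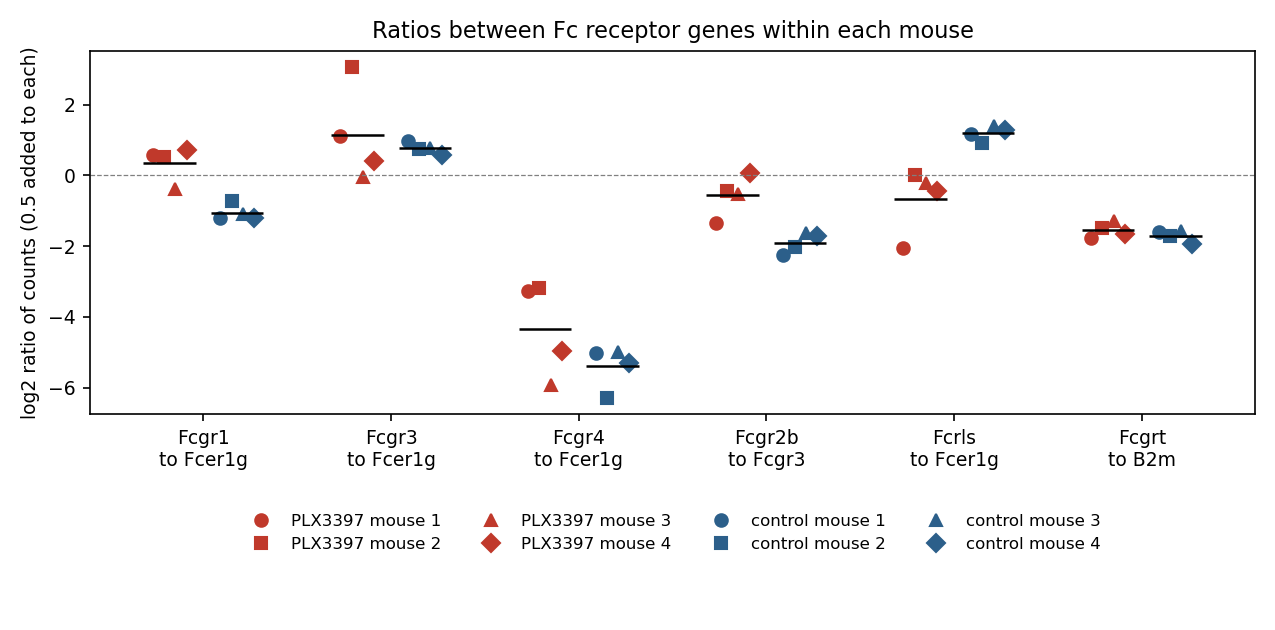
Ratio of the counts of 2 genes within each mouse, on a log2 scale with 0.5 added to each count, for PLX3397-fed mice (red) and control mice (blue), with 1 symbol per mouse number and a black line at the group mean. The groups are apart for Fcgr1 to Fcer1g and Fcgr2b to Fcgr3, where PLX3397-fed mice are higher, and for Fcrls to Fcer1g, where they are lower. The other 3 ratios overlap, with PLX3397-fed mouse 2 at 3.06 for Fcgr3 to Fcer1g (37 and 4 counts).

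The residual levels did not order the 4 PLX3397-fed mice alike. PLX3397-fed mouse 3 kept the largest share of Fcer1g (9.03%) and Fcrls (3.40%), and PLX3397-fed mouse 2 the smallest share of Fcer1g (1.70%) and Fcgr1 (5.18%). These shares rest on few counts. Fcer1g had 14, 4, 30 and 15 counts and Fcgr1 21, 6, 23 and 25 in PLX3397-fed mice 1 to 4. For Fcgr2b and Fcgr3 it was PLX3397-fed mouse 2 that kept most, at 25.1% and 9.18%. The microglial genes Csf1r, the drug's target, and Cx3cr1, the fractalkine receptor, were lowest in that mouse too, at 0.659% and 0.309% of the control mean, against 1.95% to 2.88% and 1.60% to 2.13% in the other 3 mice. Tyrobp, which encodes DAP12, a second ITAM adaptor of microglia, stood at 2.35%, 0.792%, 5.62% and 4.80% in PLX3397-fed mice 1 to 4. Microglial genes did not share 1 order either: Tmem119 stood at 3.60%, 5.86%, 4.53% and 5.66% and Olfml3 at 23.3%, 45.1%, 28.0% and 28.8% in PLX3397-fed mice 1 to 4, highest in mouse 2 like Fcgr2b and Fcgr3.

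Markers of other cells that can carry these receptors were weak but not absent. The 8 border macrophage marker genes summed to 3.11 to 5.84 CPM in PLX3397-fed mice and 12.7 to 17.7 CPM in control mice, with 35.9%, 21.8%, 40.9% and 35.6% of the control mean left in PLX3397-fed mice 1 to 4, and 3 of the 6 tested fell, Mrc1, F13a1 and Stab1. Mrc1 and Stab1 kept 18.4% and 18.6% of their control level, and Mrc1 and F13a1 passed the filter through control mice alone. Cd163, of the same list, stood at 225% of the control level without passing (1.18, adjusted p = 0.380), and it supplied 2.63, 0.814, 3.26 and 1.91 CPM of the sum in PLX3397-fed mice 1 to 4, so the shares left of the sum rest in large part on it. The 5 B cell marker genes summed to 0.381 to 1.93 CPM in PLX3397-fed mice and 0.758 to 2.21 CPM in control mice, and PLX3397-fed mouse 2 was highest of its group, at 133% of the control mean against 26.3% to 43.8% in the others. Of its 1.93 CPM most came from Pax5 (77 counts), while Ms4a1 had 1 count there. The 6 neutrophil marker genes summed to 0.181 to 0.505 CPM in PLX3397-fed mice and 0.128 to 0.845 CPM in control mice, with Ly6g at 0 counts in all 8 mice. The 4 mast cell marker genes summed to 0.0725 to 0.325 CPM in PLX3397-fed mice and 0.124 to 1.04 CPM in control mice, with the highest sum of the PLX3397-fed group in mouse 2. For T and NK cells (6 genes) the sums were 0.508 to 0.997 CPM in PLX3397-fed mice and 0.647 to 1.53 CPM in control mice. The 7 monocyte marker genes summed to 19.6 to 29.4 CPM in PLX3397-fed mice and 20.3 to 25.5 CPM in control mice, nearly all of it Ace, while Ccr2 had 7 counts over the PLX3397-fed group and 31 over the controls. The part of these cells in the residual Fc receptor counts was not tested.

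**Figure D3:**
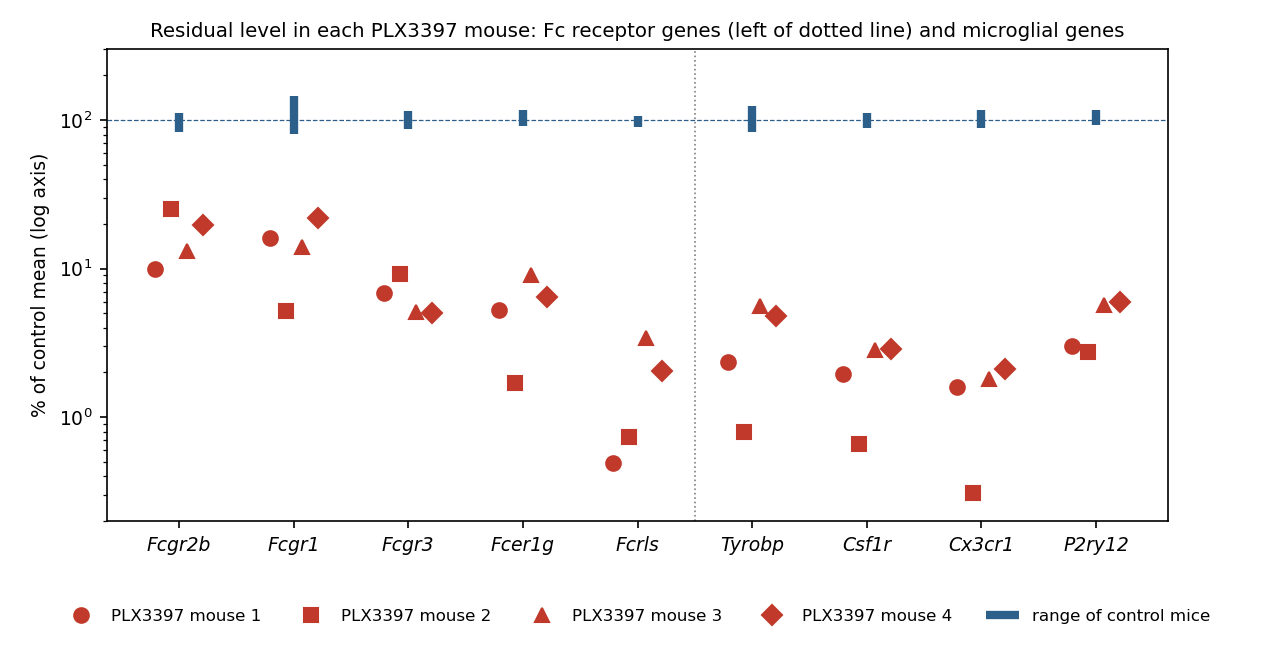
Level in each PLX3397-fed mouse (red, 1 symbol per mouse) as a percentage of the control mean, on a log axis, for 5 Fc receptor genes left of the dotted line and 4 microglial genes right of it, with the range of the 4 control mice as blue bars. Fcgr2b and Fcgr1 keep 5.18% to 25.1%, Fcrls 0.494% to 3.40%, and mouse 2 (squares) is lowest for Fcgr1, Fcer1g and the 4 microglial genes drawn and highest for Fcgr2b and Fcgr3, as it is for the microglial genes Tmem119 and Olfml3, which are not drawn. Fcgr4 (1 count in the PLX3397-fed group) and Fcgrt are not drawn.

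The genes whose profile over the 8 mice was most like that of a member are given by the smallest root mean square difference of log2 CPM after centring on the control mean, among 15541 or 15542 genes. Nearest to Fcgr3 were the perforin-like gene Mpeg1 (0.26), the tetraspanin gene Cd53 (0.34) and the microglial marker gene Tmem119 (0.43). Nearest to Fcer1g were Arhgap45, which encodes a GTPase-activating protein (0.37), the lipid-sensing receptor gene Trem2 (0.41) and the purinergic receptor gene P2ry12 (0.43). For Fcrls they were C1qa (0.40), the lectin gene Siglech (0.47) and C1qc (0.52). For Fcgr2b they were the exchange factor genes Fgd2 (0.18) and Cyth4 (0.33) and the leukotriene synthase gene Ltc4s (0.33), which kept 18.7%, 19.5% and 21.3% of their control level. For Fcgr1 they were the lysozyme gene Lyz2 (0.30), Pik3cg (0.41) and the scavenger receptor gene Stab1 (0.42), with 11.8%, 16.4% and 18.6% left. The size of the fall enters this difference, so near shares of the control level follow from how the genes were picked.

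Downstream of the receptors, 7 genes of the activating pathway fell, and most of its members did not pass. Beside the count of each list below stands the share of all genes tested that fell, 1.11%. Of 22 activating kinases and adaptors, 21 were tested, 7 fell and 0 rose (list median -0.30), and 3 of the 7, Vav1 and Btk among them, passed the filter through control mice alone. In edgeR 12 of the 21 had an unadjusted p under 0.05. Under 18 other settings, between 5 and 10 genes of this list fell. The guanine exchange factor gene Vav1 fell to 1.93% of the control level (log2 fold change -5.58, SE 0.38), the kinase gene Btk to 5.91% (-4.05, SE 0.52) and the PI3-kinase subunit gene Pik3cg to 16.4% (-2.60, SE 0.23). The SRC-family kinase gene Lyn fell to 33.3% (-1.59, SE 0.17) and Syk, the kinase that binds the phosphorylated ITAM, to 45.7% (-1.12, SE 0.18, edgeR, adjusted p = 0.0130). Syk had 80, 80, 154 and 67 counts in PLX3397-fed mice 1 to 4, against 231, 150, 203 and 194 counts in control mice 1 to 4, and it lost its call under 5 of 18 other settings (adjusted p up to 0.243).

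Of 18 genes for phagocytic actin remodelling and the oxidase, all were tested, 4 fell and 0 rose (list median -0.01), and of these Was and Dock2 passed the filter through control mice alone. The oxidase subunit gene Ncf1 fell to 10.7% of the control level (-3.21, SE 0.23), the WASP gene Was to 7.08% (-3.86, SE 0.38), the GTPase gene Rac2 to 16.6% (-2.59, SE 0.29) and its exchange factor gene Dock2 to 8.87% (-3.43, SE 0.47). The next by p were Gsn, which severs actin filaments (0.40, adjusted p = 0.314), and the engulfment gene Elmo1 (0.28, adjusted p = 0.375), neither past the threshold.

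Of 11 genes of the inhibitory arm, all were tested, 4 fell and 0 rose (list median -0.14). The phosphatase gene Ptpn6, which encodes SHP-1, fell to 21.4% of the control level (-2.22, SE 0.16), Inpp5d, which encodes SHIP1, to 32.5% (-1.62, SE 0.16), the CD45 gene Ptprc to 16.1% (-2.65, SE 0.40) and the collagen receptor gene Lair1 to 49.2% (-1.02, SE 0.10). Inppl1, which encodes the related phosphatase SHIP2, stood at 0.23 (adjusted p = 0.346) and the adaptor gene Dok1 at -0.63 (adjusted p = 0.399). Several of these genes (Lyn, Ncf1, Dock2, Elmo1, Ptpn6 and Inppl1), and of those named above Csf1r, Cx3cr1, P2ry12, Stab1, F13a1, Ace and Pax5, share exon bases with a gene on the opposite strand, and the strand setting of the counting was not stated.

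Among 12 other Fc receptor genes, 4 were tested and 1 fell, Fcrl1, a receptor-like gene best known from B cells (list median -0.09, the same with Fcrl1 at its bound). It passed the filter through control mice alone, with 0 counts in each of the 4 PLX3397-fed mice, against 18, 17, 28 and 22 counts in control mice 1 to 4. Against a floor of 3 counts over the group, it was at least 29.7-fold lower (edgeR, adjusted p = 0.00206). Of the B cell receptor chain genes, Cd79a had 67 counts over the PLX3397-fed mice and 97 over the controls and did not pass (adjusted p = 0.505), and Cd79b, too weak to test, had 3 counts over the PLX3397-fed mice and 27 over the controls. The cytosolic antibody receptor gene Trim21 (-0.31, adjusted p = 0.470), Fcrlb (0.30, adjusted p = 0.628) and the low-affinity IgE receptor gene Fcer2a (0.12, adjusted p = 0.924) did not pass. The IgE receptor alpha chain gene Fcer1a had 0 counts in PLX3397-fed mice and 3 in control mice.

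Of 12 receptors and adaptors that pair with Fcer1g or signal like it, 4 were tested and 2 fell (list median -2.51), but both had passed the filter through control mice alone, so that the count and the median are descriptions. Tyrobp fell to 3.39% of the control level (-4.83, SE 0.38) and Trem2 to 6.15% (-4.02, SE 0.38), while the adaptor gene Hcst (-0.995, adjusted p = 0.562) and the collagen receptor gene Oscar (-0.04, adjusted p = 0.955) did not pass. On the ligand side, 3 of 10 immunoglobulin genes were tested and 0 passed in edgeR (0 at an unadjusted p under 0.05 either). Ighm averaged 14.5 CPM in PLX3397-fed mice and 10.2 CPM in control mice (adjusted p = 0.740), and the IgG2c heavy chain gene Ighg2c averaged 2.13 CPM in PLX3397-fed mice and 1.62 CPM in control mice (adjusted p = 0.771).

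**Figure D4:**
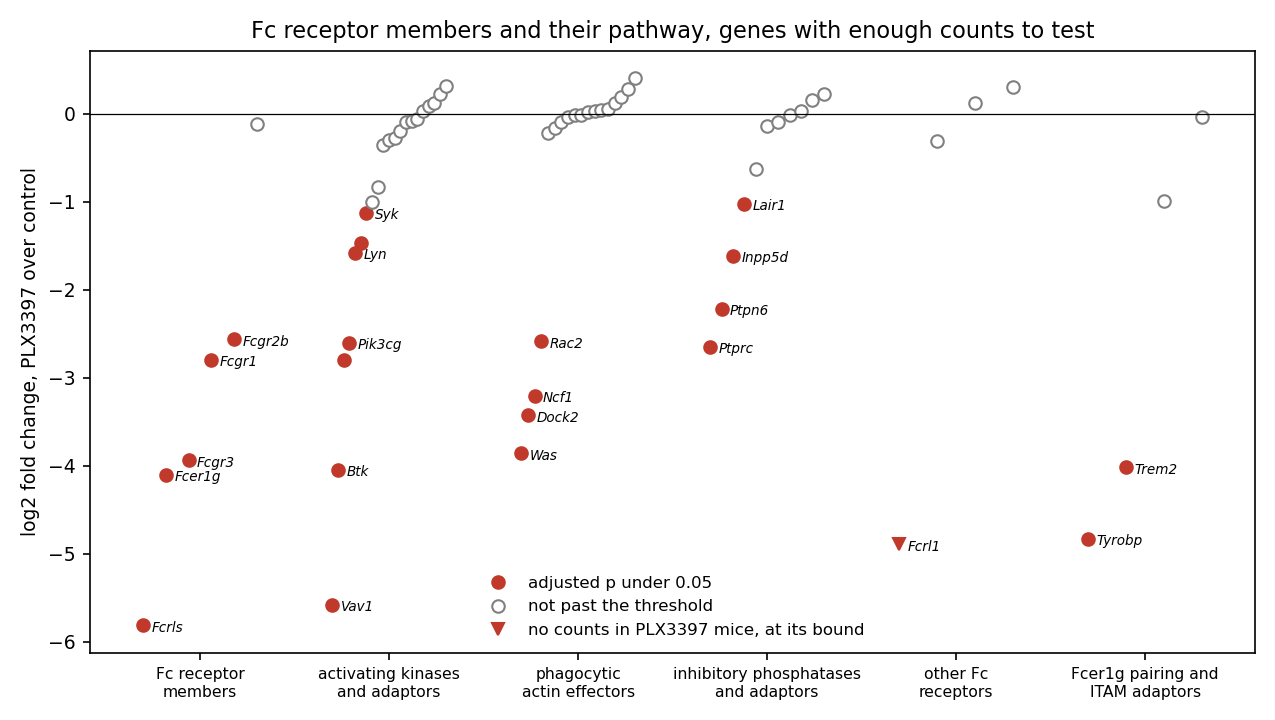
Log2 fold change, PLX3397-fed over control mice, of each tested gene of the family and of 5 pathway lists, with 1 symbol per gene, filled where the adjusted p of edgeR's quasi-likelihood test was under 0.05 and labelled where the text names the gene. The filled genes all lie below 0, from -1.02 (Lair1) to -5.81 (Fcrls). Open symbols reach up to 0.40 (Gsn), and many lie near 0, but not all. Plcg2, whose groups did not overlap, and Hcst (-0.995) lie close to Lair1. Lat2 (-0.837) and Dok1 (-0.63) are also below 0 without passing. Fcrl1, with no counts in PLX3397-fed mice, is drawn as a triangle at its bound of 29.7-fold lower.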

How the data were processed

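Total RNA of the whole forebrain of 8 mice was sequenced, 1 library per mouse, and each mouse took its group from its title. The authors deposited raw, whole-number counts for each gene symbol. Per the submitters' processing notes, the tools were STAR, FastQC, MultiQC, DESeq2 and DESeq, on mm10; versions, counter, annotation, strand setting and read length were not stated there.

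Genes were filtered with filterByExpr (minimum count 10; 20140 of 53278 kept). The main test was edgeR's quasi-likelihood test (version 4.0.16, R 4.3.3) after TMM scaling, with no covariate and Benjamini-Hochberg adjustment across every tested gene (threshold 0.05). Each SE of a log2 fold change was derived from the test, as the absolute log2 fold change divided by the square root of its F statistic. Shares of the control level are ratios of mean CPM. Log2 CPM used a prior count of 2, and ratios between genes 0.5 added to each count. Coordinates, exon lengths and transcript words came from GENCODE M21, which matched 93.3% of symbols. The test was checked on simulated data. No library pair within a group agreed within sampling noise.

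Members and lists were chosen with earlier results of these data known. Named were all members, B2m, Tyrobp and Syk, up to 6 genes of smallest p per pathway list, and 3 similar genes per member that passed, of which 1 gene is not reported here; single marker genes were singled out after their values were seen. Alternatives used other scalings, filters, DESeq2 1.42.0, limma-voom (limma 3.58.1), blocks, a covariate and leaving out mice.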

Additional observations from a re-analysis of the deposited data

Results flagged for a closer look

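Fcgr1 in control mice was flagged because 1 mouse stood far from the other 3: control mouse 2 had 3.42 CPM, and its gap to the nearest mouse took 0.896 of the group's range (Dixon's ratio, above the 95% critical value for 4 samples). Without that mouse Fcgr1 still fell. Fcgr4 in PLX3397-fed mice was flagged with a ratio of 1, since mouse 1 had 1 count (0.0181 CPM) and the other 3 had 0. Of 32 groups examined, chance would flag about 1 in 20.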

How the results depend on the processing

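Under 18 other settings, between 4 and 5 members fell and 0 rose. Fcgr2b, Fcgr3, Fcer1g and Fcrls passed in all 18, with log2 fold changes from -2.80 to -2.39, -4.13 to -3.82, -4.58 to -3.82 and -6.51 to -5.515. Fcgrt passed in 0 of 18 (-0.22 to -0.04). With the replicate number as a block, Fcgr1 lost its call (-2.79, adjusted p = 0.0518) and Fcrl1 too (adjusted p = 0.110), so that 0 other Fc receptors fell; 0 were left as well with a filter of 1 CPM in 4 samples. The labels do not say whether the numbers pair the mice. Deviations of same-numbered mice correlated at -0.216, -0.172, 0.368 and -0.0114, and only PLX3397-fed mouse 3 correlated best with its own number. Same-numbered mice also matched in Hcrt, with many counts in mice 2 and 3 and few in mice 1 and 4. These values do not settle a pairing. The members' median was -3.94 without Fcgrt. With 2 counts added in place of 0.5, the log2 differences of the ratios were 1.36 (Fcgr1 to Fcer1g), 1.36 (Fcgr2b to Fcgr3), -1.76 (Fcrls to Fcer1g) and 2.30 (Fcgr4 to Fcer1g), each now with an adjusted p of 0.0429, because Fcgr4 to Fcer1g joined the separated ratios; with 1 Fcgr4 count in PLX3397-fed mice, that ratio is set by the added counts and Fcer1g, so these gains say nothing of Fcgr4 and the gain of the other 3 rests on it. Leaving out 1 mouse gave 1.30 to 1.66, 1.13 to 1.601, -2.10 to -1.415 and 0.68 to 1.6015 in the same order, and without PLX3397-fed mouse 3 these 4 passed (adjusted p = 0.0429) on the same footing. Fcgr3 to Fcer1g ran from -0.28 (reversed, without PLX3397-fed mouse 2) to 0.76. Leaving out 1 mouse gave 0 or 1 higher gene in the inhibitory list (1 without PLX3397-fed mouse 2). A sign-flip test over replicate pairs could not go below 0.125. Leaving out PLX3397-fed mice 2 and 3 together, chosen after seeing the data, left 5 members past the threshold, all lower. Over all genes, 223 fell and 11 rose, against 346 and 118 in DESeq2 and 441 and 243 without PLX3397-fed mouse 2. Residual counts of 0 to 37 per mouse limit the ratios.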
